A study of Saccharomyces cerevisiae with 12 samples.

Results

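The comparison described here is the overexpression of EUC1 in galactose, measured by RNA sequencing in 6 of the 12 samples of the series. These 6 are the 3 control samples and the 3 pGAL-EUC1 samples of the second experiment, chosen by their labels alone. Both strains were W303a RAD5 haploids in which the chromosomal EUC1 gene (YMR111C) had been replaced by natNT2. The control strain carried EUC1 under its own promoter on the integrated plasmid YIplac211 with the URA3 marker, and the pGAL-EUC1 strain carried it under the GAL promoter on the same plasmid. Cells of both strains were grown in YP with raffinose to an OD of 0.5 and then received 2% galactose for 3 h, so the control was exposed to galactose as well. Each group was thus a single strain sampled in triplicate, which the series describes as biological. The other 6 samples compared euc1 deletion with WT in another strain background, DF5a, in glucose medium, and serve here only for a side-by-side view.

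Euc1 is a DNA-binding protein of budding yeast with a GCR1-type DNA-binding domain, the kind of domain that Gcr1 uses at genes of glycolysis. Together with the SUMO-targeted ubiquitin ligase Slx5/Slx8 it occupies a small set of chromosomal sites called ub-hotspots, where ubiquitin accumulates on chromatin. The GAL promoter is silent in glucose, becomes poised in raffinose and is switched on by galactose through the activator Gal4. The comparison therefore asks which transcripts differ when Euc1 is made in large amounts.

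The sites to which Euc1 is recruited share a sequence motif, and 3 of the 11 motif sites are shown because the promoters printed further down are compared with them. They were read from the R64 genome and are written 5′ to 3′ on the strand with more T than A. Capitals mark the fixed letters of a paired pattern, GTTTCNNNNNTGTTNC. These are the letters that at least 9 of the 10 sites of 36 bases share between their bases 11 and 26, and 8 of the 11 sites hold the whole pattern.
ub-HS4 motif 3 (chrXIII:309683-309718, plus strand): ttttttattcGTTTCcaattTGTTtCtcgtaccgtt
ub-HS5 (chrXIII:413597-413632, plus strand): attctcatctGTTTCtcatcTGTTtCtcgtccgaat
ub-HS6 (chrXIII:433801-433836, minus strand): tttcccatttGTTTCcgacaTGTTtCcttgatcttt

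The overexpressed gene itself was checked first. EUC1 spans bases 492404 to 493792 of chromosome XIII in R64 (minus strand). Its level was 50.6, 30.8 and 31.6 TPM (the share of a transcript, per length, of a fixed total for each sample) in control replicates 1 to 3. In pGAL-EUC1 replicates 1 to 3 it stood at 1985, 1942 and 2035 TPM. The groups lay far apart, by a log2 fold change of 5.72 ± 0.17 (standard error, n = 3 per group, adjusted p = 6.84e-06). With galactose induction EUC1 moved from rank 3413 to rank 71 among all listed transcripts and took 0.197 to 0.206% of the summed TPM. An exact two-sided permutation test of this single gene gives p = 0.1, the smallest value that 3 samples against 3 can give.

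The genes of the galactose system, which both strains need for the induction, were checked next. GAL1, the galactokinase that starts galactose breakdown, was at 4589, 4393 and 4658 TPM in the control and at 4695, 4379 and 4798 TPM in pGAL-EUC1, with overlapping groups. Its log2 fold change was 0.02 ± 0.04 (adjusted p = 0.737). GAL7 and GAL10, the next enzymes of the pathway, had log2 fold changes of -0.00 and 0.07, and neither passed the test. GAL4, the activator of the system, had a log2 fold change of -0.11 (adjusted p = 0.48). Lower values passed the test for GAL2, the galactose permease (log2 fold change -0.14, adjusted p = 0.0515), and for GAL3, the galactose sensor (-0.16, adjusted p = 0.0363). FUR4, the uracil permease, which lies in the GAL gene cluster, rose by 0.36 on the log2 scale (adjusted p = 0.00549).

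A second control concerns the marker. URA3, which encodes an enzyme of pyrimidine synthesis and is the marker on the integrated plasmid in both strains, was at 351, 342 and 367 TPM in the control and at 229, 224 and 245 TPM in pGAL-EUC1. All 3 pGAL-EUC1 samples were below all 3 controls, with a log2 fold change of -0.60 ± 0.05 (adjusted p = 0.00107). According to the paper, both EUC1 constructs were integrated at the URA3 locus. The genes on either side of that locus gave a log2 fold change of 0.00 for GEA2 (adjusted p = 0.992) and of -0.26 for TIM9 (adjusted p = 0.0649). The number of plasmid copies in each strain was not tested. MED11 and HFD1 lie next to the chromosomal EUC1 locus, where the gene had been replaced in both strains. MED11, a Mediator subunit gene, fell by 0.24 on the log2 scale at the edge of the threshold (adjusted p = 0.0998). HFD1, a fatty aldehyde dehydrogenase gene, rose by 0.22 in the deposited values only (adjusted p = 0.0703, and 0.231 after median-of-ratios scaling).

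Of the 6332 genes that averaged 1 TPM or more across the 6 samples, 1294 (20.4%) differed between the strains at an adjusted p under 0.1 (limma on log2(TPM + 1)). Among them, 1014 (16.0% of the genes tested) were higher and 280 (4.42%) were lower in pGAL-EUC1. The changes were small. The median size of a called change was 0.22 on the log2 scale, 81 called genes changed by at least 0.5 (46 higher, 35 lower) and 11 by at least 1 (7 higher, 4 lower). The groups of 3 did not overlap for 37.0% of the genes tested.

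The split between higher and lower genes depended on the scaling. In the deposited values the median gene was higher by 0.08 on the log2 scale in pGAL-EUC1, and 78.4% of the calls were higher. After scaling by the median of ratios the median was 0.01, 288 genes (4.55%) were higher and 526 (8.31%) were lower, so that 35.4% of 814 calls were higher. The shared core was 568 genes called in the same direction either way, 288 higher and 280 lower. For this reason every group below is given under both scalings. A gene is described as risen or fallen with its value in the deposited TPM. Median-of-ratios scaling shifted log2 fold changes downward, and all 280 lower calls of the deposited values were kept. Keeping a lower call under both scalings is therefore no further check of a fall, whereas a higher call could be lost. Single samples also weighed on the count, which was 263 without pGAL-EUC1 replicate 1, 571 without pGAL-EUC1 replicate 3 and 605 without control replicate 2.

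The facts of the whole libraries moved with the groups as well. The share of the TPM taken by cytosolic ribosomal protein genes was 24.4 to 25.0% in the control and 22.9 to 24.3% in pGAL-EUC1. The scaling factors were 0.969 to 0.985 in the control and 1.017 to 1.037 in pGAL-EUC1, and the first principal component separated the groups. Markers of the mating type checked the label MATa. The summed level of the 7 MATa genes ranged over 1418 to 1624 TPM among controls and 1450 to 1815 TPM among pGAL-EUC1 samples, and that of the 5 MATalpha genes was 58.5 to 63.2 and 55.1 to 65.4 TPM. STE3, the receptor for a-factor that defines MATalpha cells, ranged from 5.22 to 6.90 TPM and from 7.57 to 7.99 TPM. TPM values keep no record of read numbers, so the depth behind each value is unknown, and since each group is a single strain, an effect of EUC1 and any other difference between the 2 strains cannot be told apart.

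**Figure D1:**
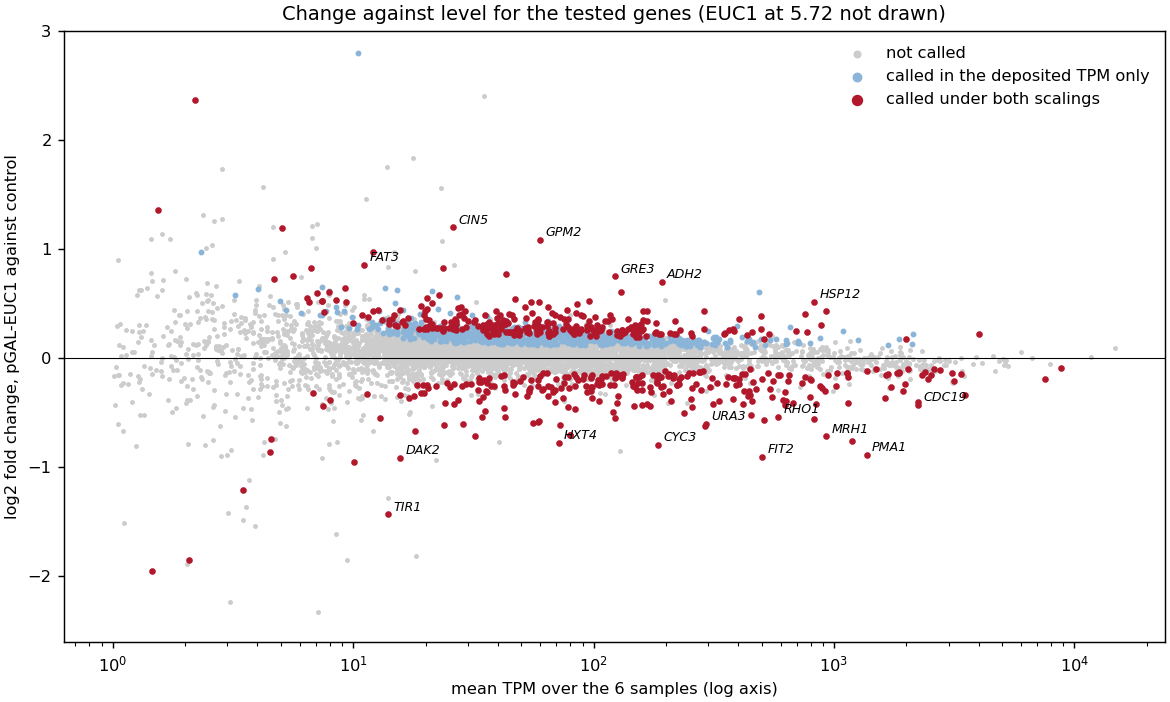
Log2 fold change of each tested gene (vertical axis, pGAL-EUC1 against control) against its mean TPM over the 6 samples (horizontal log axis), with called genes in colour. Most called genes lie within 0.5 of 0, and the genes called only in the deposited TPM (blue) are all higher. PMA1, MRH1, CYC3 and HXT4 stand below the cloud at high or middle levels.

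CIN5 and GPM2 were among the largest rises beside EUC1. CIN5 encodes a bZIP transcription factor of the yeast AP-1 family with a role in salt and drug tolerance, and its gene spans bases 383533 to 384420 of chromosome XV (minus strand). Its level was 16.1, 16.8 and 13.6 TPM in the control and at 36.4, 37.7 and 36.2 TPM in pGAL-EUC1. The groups were well separated, with a log2 fold change of 1.20 ± 0.08 (adjusted p = 0.000533), and the call held in each of the 6 fits that left out a sample. The open reading frame YOR029W, which starts on the other strand at position 384600 upstream of CIN5, also rose, from 0.36 to 0.55 TPM in the control to 2.11 to 3.11 TPM in pGAL-EUC1 (adjusted p = 0.0495). It was picked after its values were seen. The library kit does not mark the strand, so reads from a long CIN5 transcript and from YOR029W cannot be told apart.

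GPM2, a homologue of the glycolytic phosphoglycerate mutase Gpm1, stood at 38.6, 37.4 and 38.4 TPM in the control and at 83.2, 80.0 and 83.0 TPM in pGAL-EUC1. Its log2 fold change of 1.09 ± 0.04 (adjusted p = 2.68e-05) was the most precise of the large rises. GPM1, the main enzyme, had a log2 fold change of -0.01 and did not pass the test.

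Other well-measured rises were in metabolism. GRE3, an aldose reductase induced by stress, rose from 89.0, 86.6 and 96.5 TPM to 152, 140 and 170 TPM (log2 fold change 0.75 ± 0.07, adjusted p = 0.0028). ADH2, the alcohol dehydrogenase that turns ethanol back into acetaldehyde, rose from 146, 141 and 150 TPM to 245, 219 and 250 TPM (0.70 ± 0.06, adjusted p = 0.00124). FAT3, a gene of fatty acid uptake, rose from between 7.26 and 8.23 TPM to between 13.4 and 15.5 TPM (0.86 ± 0.09, adjusted p = 0.00397). None of these 3 genes had overlapping groups, and each kept its call under both scalings. For ADH2, 11.8% of the windows of 75 bases, the read length, also occur elsewhere in the genome.

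Several of the largest rises belonged to open reading frames without a gene entry in the reference used here, among them YDR048C (log2 fold change 1.20), YBL094C (0.98), YDR290W (0.83), YDR413C (0.78), YNL303W (0.75) and YDR426C (0.64). Their positions, and so any overlap with a neighbour on the other strand, are not given here. The small gene YLR285C-A (0.83), the subtelomeric YDL242W (0.65) and the mitochondrial 15S_RRNA (0.64) complete the 15 largest rises. Of these, YDL242W and 15S_RRNA lost their calls after median-of-ratios scaling (adjusted p = 0.128 and 0.154). Among the 6 fits that left out a sample, their calls held in 2 and in 1. The 15S_RRNA value also comes from libraries made from polyA RNA.

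**Figure D2:**
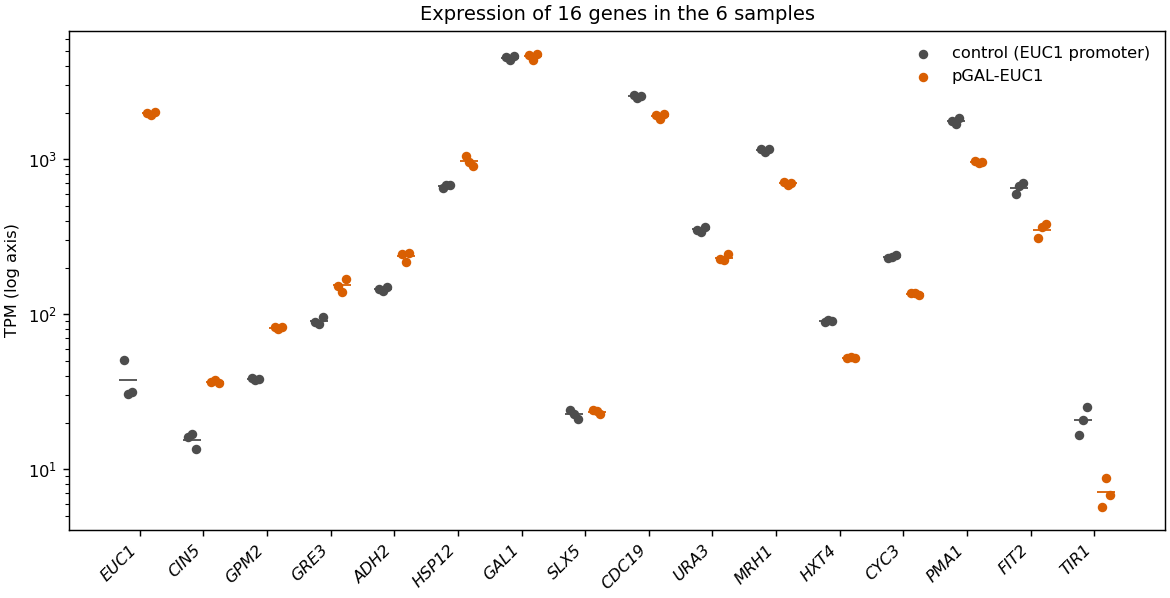
TPM on a log axis for 16 genes in the 3 control samples (grey points) and the 3 pGAL-EUC1 samples (orange points), with the group mean as a line. EUC1 rises from between 30.8 and 50.6 TPM to between 1942 and 2035 TPM, GAL1 and SLX5 overlap between the groups, and for the other 13 genes the 3 points of each group lie apart.

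The falls of the largest size were spread over several gene groups. TIR1, a cell wall mannoprotein of the cold and anaerobic response, had the largest of the falls named here and went from 16.6, 20.8 and 25.3 TPM to 5.69, 8.83 and 6.78 TPM (log2 fold change -1.43 ± 0.18, adjusted p = 0.0064). About 4.86% of its windows of 75 bases, the read length, also occur elsewhere in the genome. Of 28 genes of the TIR, DAN and other mannoprotein families, 2 (7.14%) were higher and 2 (7.14%) lower, beside 16.0% and 4.42% of all genes. After median-of-ratios scaling 1 (3.57%) was higher and 3 (10.7%) lower, beside 4.55% and 8.31%. UTH1, a gene of the cell wall and mitochondria, fell from 942, 956 and 1046 TPM to 673, 644 and 681 TPM (-0.56 ± 0.05), whereas TIP1, a cold-induced mannoprotein gene, rose from 433, 425 and 433 TPM to 568, 536 and 584 TPM (0.39 ± 0.04).

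PMA1 encodes the plasma membrane proton pump, the ATPase that sets the membrane potential and the pH of the cell. It fell from 1780, 1685 and 1857 TPM in the control to 977, 942 and 964 TPM in pGAL-EUC1 (log2 fold change -0.88 ± 0.04, adjusted p = 6.19e-05). MRH1, a membrane protein of the opsin-related family, fell from 1163, 1123 and 1161 TPM to 717, 679 and 702 TPM (-0.72 ± 0.04). HSP30, a member of the same family that is known to lower pump activity in stress, fell from 82.2, 86.3 and 95.8 TPM to 53.4, 56.5 and 62.3 TPM (-0.61 ± 0.07). PMP1 and PMP2, small proteolipids that bind the pump, fell by 0.40 and 0.36, and YRO2, the closest relative of MRH1, by 0.23. Of the 9 genes of the pump and the MRH1 family, 6 were lower under either scaling, beside 4.42% of all genes in the deposited values and 8.31% after scaling. EXP1, which helps the pump to leave the endoplasmic reticulum, was higher in the deposited values only (0.16), and PMA2 and PMP3 did not pass the test at 0.12 and 0.01.

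Genes of iron uptake were also among the 15 largest falls named here. Yeast takes up iron bound to siderophores through cell wall mannoproteins (FIT genes) and transporters (ARN genes), and the regulon is driven by Aft1. FIT2 fell from 598, 671 and 700 TPM to 309, 366 and 381 TPM (log2 fold change -0.90 ± 0.09, adjusted p = 0.00272). FIT3 fell from 1335, 1495 and 1636 TPM to 785, 858 and 992 TPM (-0.76 ± 0.10), while FIT1 did not pass the test at 0.19. TIS11, the protein that degrades mRNAs of iron-using enzymes when iron is scarce, fell by 0.71, and the transporter gene ARN2 by 0.54. The reductive uptake pair FET3 and FTR1 did not pass the test at -0.11 and -0.07. Of 30 genes of iron uptake and use, 8 (26.7%) were lower and 2 (6.67%) higher, beside 4.42% and 16.0% of all genes. After median-of-ratios scaling 12 (40.0%) were lower and 2 (6.67%) higher, beside 8.31% and 4.55%. The 2 risen genes were ISU1 (0.24), a scaffold for iron-sulfur clusters, and HMX1 (0.27), the haem oxygenase.

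CYC3 and HXT4 fell with a small spread. CYC3, which attaches haem to cytochrome c, went from 232, 233 and 242 TPM to 137, 136 and 133 TPM (log2 fold change -0.80 ± 0.04, adjusted p = 6.19e-05). HXT4, a glucose transporter of high affinity, went from 89.8, 92.2 and 89.8 TPM to 52.6, 52.7 and 52.5 TPM (-0.77 ± 0.04). Of 21 genes of hexose transport and glucose sensing 3 (14.3%) were higher and 3 (14.3%) lower, beside 16.0% and 4.42% of all genes. After median-of-ratios scaling 1 (4.76%) was higher and 4 (19.05%) lower, beside 4.55% and 8.31%. The median of the group changed sign with that scaling, from 0.05 to -0.01. DAK2, a dihydroxyacetone kinase gene, fell from between 19.1 and 22.4 TPM to between 9.67 and 11.2 TPM (-0.91 ± 0.09), FRM2, a nitroreductase gene, by 0.95, SPS100, a spore wall gene, by 0.66, and ERG28, a scaffold of sterol synthesis, by 0.62. The 5S ribosomal RNA genes RDN5-1 and RDN5-6 were listed with the same values in every sample and count as a single measurement (-0.71, adjusted p = 0.058). Their call held in 2 of the 6 fits that left out a sample, and the libraries were made from polyA RNA.

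Glycolysis carried falls at some steps and no detectable change at others. CDC19, the main pyruvate kinase, fell from 2611, 2493 and 2584 TPM to 1946, 1818 and 1952 TPM (log2 fold change -0.43 ± 0.04, adjusted p = 0.00214). PGI1, which interconverts glucose and fructose phosphates, fell by 0.41, the enolase gene ENO1 by 0.37, TDH1 by 0.25, HXK2 by 0.23 and FBA1 by 0.19. PGK1, PFK1, ENO2 and GPM1 had log2 fold changes between -0.01 and 0.01. Against these stood GPM2 and, in the deposited values only, PYK2, the minor pyruvate kinase (0.23). Of 21 genes, 6 (28.6%) were lower and 2 (9.52%) higher, beside 4.42% and 16.0% of all genes. After median-of-ratios scaling 9 (42.9%) were lower and 1 (4.76%) higher, beside 8.31% and 4.55%. For ENO1, 10.7% of the read-length windows also occur elsewhere. TYE7, a bHLH activator of glycolytic genes, fell by 0.25, and GCR1, the founding member of the domain family of Euc1, had a log2 fold change of -0.03 (adjusted p = 0.752). The other genes of the list of this domain family and its partners, GCR2, which encodes the partner of Gcr1, MSN1, HOT1 and CBF2, ranged from -0.05 to 0.21 without passing the test.

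Genes of the glyoxylate cycle and gluconeogenesis, which let yeast live on ethanol and acetate, were on the higher side. ATO3, an ammonium and acetate transporter gene, rose from 37.6, 36.9 and 40.3 TPM to 56.5, 54.8 and 57.1 TPM (log2 fold change 0.54 ± 0.05, adjusted p = 0.00214). MDH2, the cytosolic malate dehydrogenase, rose by 0.43, IDP2, the cytosolic isocitrate dehydrogenase, by 0.41, SFC1, the succinate-fumarate carrier, by 0.40 and ICL1, the isocitrate lyase, by 0.27. Of 22 genes, 8 (36.4%) were higher and none lower in the deposited values, beside 16.0% and 4.42% of all genes. After median-of-ratios scaling 6 (27.3%) were higher and 1 (4.545%) lower, beside 4.55% and 8.31%. ADR1 and CAT8, the activators of these genes and of ADH2, had log2 fold changes of 0.05 and 0.02 that did not pass the test. PCK1 and FBP1, the committed enzymes of gluconeogenesis, did not pass it either, at 0.30 and 0.28.

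Mitochondrial and peroxisomal groups differed from each other, and their counts stand beside 16.0% higher and 4.42% lower among all genes (4.55% and 8.31% after median-of-ratios scaling). Of 16 genes of the tricarboxylic acid cycle, 7 (43.8%) were higher and none lower, but after scaling only 2 (12.5%) were higher. Of 30 genes of the peroxisome and beta-oxidation, 11 (36.7%) were higher and 1 lower, and 5 and 2 after scaling. FAA1, a fatty acyl-CoA synthetase gene, was among the lower ones (-0.17). Of 38 nuclear genes of the respiratory chain and ATP synthase, 3 (7.89%) were higher and none lower, which turned to none higher and 2 lower after scaling, and their median changed from 0.02, beside 0.08 for all genes, to -0.05, beside 0.01. None of the 7 tested genes of the mitochondrial genome list passed the test. Of all 16 tested entries on the mitochondrial chromosome 2 did, among them 15S_RRNA (0.64), which is not in that list.

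**Figure D3:**
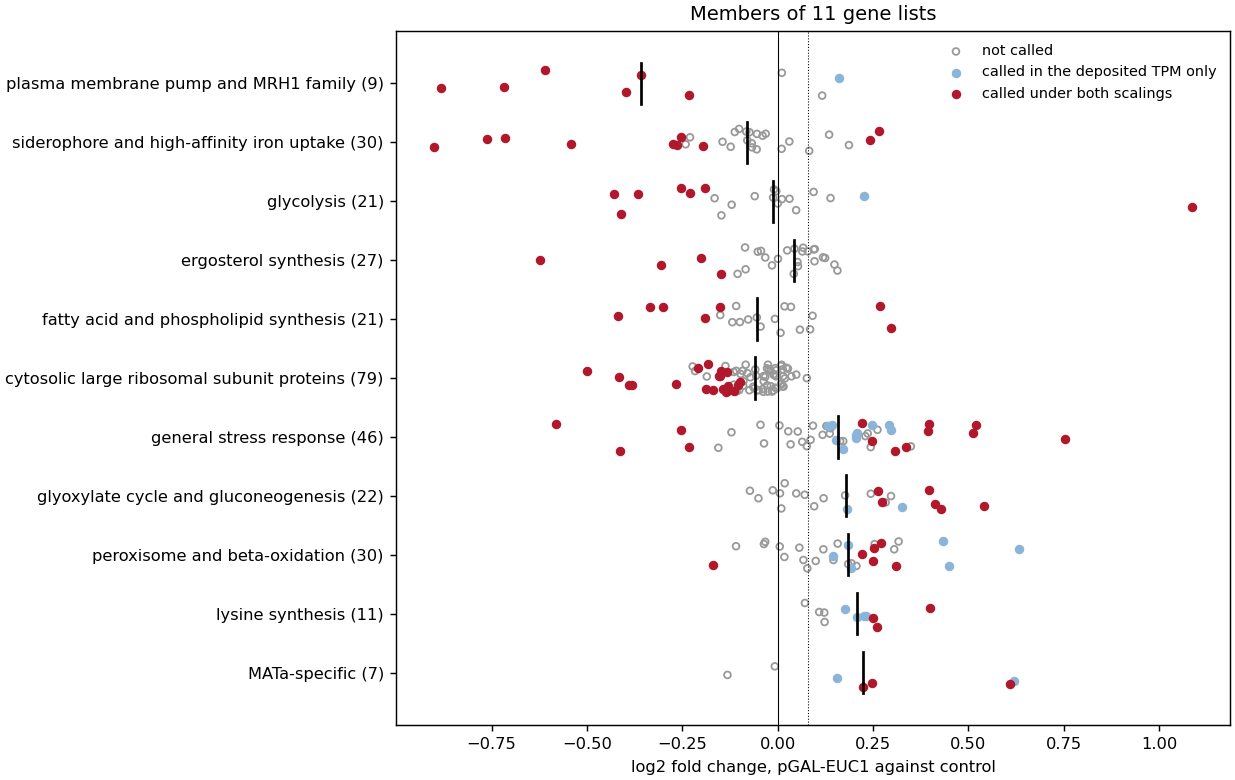
Log2 fold change of each tested member of 11 gene lists (number tested in brackets), with a black bar at the median of the list, a solid line at 0 and a dotted line at the median of all genes, 0.08. Red points keep their call under both scalings, and they lie mostly on the left for the pump family, iron uptake, glycolysis, ergosterol and ribosomal protein genes and mostly on the right for stress, glyoxylate, lysine and MATa genes.

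Among genes of the general stress response, more were higher than lower. HSP12, a small membrane protein made in many stresses, rose from 655, 688 and 685 TPM to 1047, 966 and 903 TPM (log2 fold change 0.52 ± 0.06, adjusted p = 0.00361). GAD1, the glutamate decarboxylase, rose by 0.51, TSL1, a subunit of trehalose synthase, by 0.40, TFS1, an inhibitor of carboxypeptidase Y, by 0.39, and MSN4, an activator of the response, by 0.34, whereas its partner MSN2 did not pass the test at 0.08. Against the direction of the group, GRE1 fell by 0.58, GAC1, a regulator of glycogen synthesis, by 0.41, HXT5 by 0.25 and HSP26 by 0.23. Of 46 genes, 19 (41.3%) were higher and 4 (8.7%) lower in the deposited values, beside 16.0% and 4.42% of all genes. After median-of-ratios scaling 9 (19.6%) were higher and 5 (10.9%) lower, beside 4.55% and 8.31%. The median of the group was 0.16, beside 0.08 for all genes, and 0.08 beside 0.01 after scaling.

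Chaperones and the proteasome depended more on the scaling. Of 32 chaperone genes of the Hsf1 regulon, 13 (40.6%) were higher and 3 (9.38%) lower, but 4 (12.5%) and 4 (12.5%) after median-of-ratios scaling. Among all genes 16.0% were higher and 4.42% lower, and 4.55% and 8.31% after scaling. CPR6, a cyclophilin that works with Hsp90, rose from 241, 246 and 247 TPM to 321, 316 and 354 TPM (log2 fold change 0.43 ± 0.05), and STI1, an Hsp90 co-chaperone gene, rose by 0.20 in the deposited values only (adjusted p = 0.058, and 0.224 after scaling). SSB2, a ribosome-bound Hsp70, fell by 0.30, although 36.3% of its read-length windows also occur elsewhere. Of 37 proteasome genes, 20 (54.05%) were higher and none lower in the deposited values, with a median of 0.13. After scaling 2 (5.4%) were higher, near the 4.55% of all genes, and the median became 0.05. Of 20 genes of the SUMO, Slx5/Slx8 and Cdc48 pathways, 7 were higher and none lower, and 1 after scaling. SLX5 and SLX8 themselves did not pass the test at 0.06 and 0.07 (adjusted p = 0.555 and 0.44).

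Ribosomal protein genes lay on the lower side under both scalings. Of the 56 genes of the small cytosolic subunit, 8 were lower and none higher, and of the 79 of the large subunit 20 and none. After median-of-ratios scaling these became 31 and 33, again with none higher. Of 79 mitochondrial ribosomal protein genes, 16 were lower and 2 higher, and 45 and none after scaling. The lower shares of the 3 groups were 14.3%, 25.3% and 20.25%, beside 4.42% of all genes. After scaling they were 55.4%, 41.8% and 57.0%, beside 8.31%. Higher calls made up 16.0% of all genes, and 4.55% after scaling. The medians of the 3 groups were -0.07, -0.06 and -0.10, and -0.14, -0.13 and -0.18 after scaling.

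Within the ribosome, single paralogues stood out. RPL22B fell from 294, 267 and 274 TPM to 202, 195 and 193 TPM (log2 fold change -0.50 ± 0.05, adjusted p = 0.00214). RPS9A fell by 0.36 and RPS9B stood at -0.01, RPL8A fell by 0.38 and RPL8B stood at -0.01, and RPL7B fell by 0.39 while RPL7A stood at 0.01. Only the first gene of each of these pairs passed the test, and the difference between paralogues was not tested. The paralogues share much of their sequence, 21.3% of the read-length windows of RPL7B and 0.196% of those of RPS9A occur elsewhere, and the split of shared reads between them was estimated by the authors' software.

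Amino acid genes did not move as a block. Of 11 genes of lysine synthesis, 7 (63.6%) were higher and none lower, and 3 (27.3%) after median-of-ratios scaling. The shares of all genes were 16.0% higher and 4.42% lower, and 4.55% and 8.31% after scaling. LYS9, the saccharopine dehydrogenase that forms saccharopine, rose from 57.9, 58.1 and 62.5 TPM to 83.0, 74.4 and 79.2 TPM (log2 fold change 0.40 ± 0.06, adjusted p = 0.00884), and LYS20, the homocitrate synthase at the entry of the pathway, rose by 0.26, while their activator LYS14 did not pass the test at 0.07. About 30.3% of the windows of LYS20 occur elsewhere. Of 15 genes of arginine metabolism, 6 were higher and none lower, and 3 after scaling, with CAR2, the ornithine transaminase, at 0.42. Of 28 genes of sulfate assimilation and methionine synthesis, 1 (3.57%) was higher and 3 (10.7%) lower, and none and 7 (25.0%) after scaling. SAM2, the S-adenosylmethionine synthetase, fell from 629, 644 and 556 TPM to 401, 423 and 409 TPM (-0.57 ± 0.06), and MET6, the methionine synthase, fell by 0.33.

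Nitrogen genes split. GAP1, the general amino acid permease, fell from 287, 286 and 312 TPM to 218, 200 and 229 TPM (log2 fold change -0.45 ± 0.06, adjusted p = 0.00777), CHA1, the serine deaminase, fell by 0.43, and GDH1, which fixes ammonium into glutamate, by 0.41. PUT4, the proline permease, rose by 0.35 and DAL1, the allantoinase, by 0.40. Of 28 genes, 4 (14.3%) were higher and 8 (28.6%) lower, beside 16.0% and 4.42% of all genes. After median-of-ratios scaling 2 (7.14%) were higher and 9 (32.1%) lower, beside 4.55% and 8.31%. The median changed with that scaling from 0.06 to -0.01. Of 18 genes of NAD synthesis, 6 (33.3%) were higher and none lower, and 5 (27.8%) and 1 (5.56%) after scaling. TNA1, the nicotinic acid permease, rose from 133, 134 and 140 TPM to 185, 183 and 184 TPM (0.44 ± 0.04, adjusted p = 0.00165).

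Lipid and cell wall genes changed in both directions. Of 27 genes of ergosterol synthesis, 4 (14.8%) were lower and none higher, and 8 (29.6%) after median-of-ratios scaling. The shares of all genes were 4.42% lower and 16.0% higher, and 8.31% and 4.55% after scaling. ERG28 fell from 333, 358 and 369 TPM to 230, 232 and 224 TPM (log2 fold change -0.62 ± 0.05, adjusted p = 0.000838), ERG6 by 0.30 and ERG11, the target of azole drugs, by 0.20. OPI3, which methylates phosphatidylethanolamine on the way to phosphatidylcholine, fell by 0.42, and ITR1, the inositol permease, by 0.33. Of 21 genes of fatty acid and phospholipid synthesis, 5 (23.8%) were lower and 2 (9.52%) higher, and 7 (33.3%) and 2 (9.52%) after scaling. The higher ones under both scalings were SUR2, a sphingolipid hydroxylase gene (0.30), and ELO1, a fatty acid elongase gene (0.27). RHO1, the GTPase that switches on glucan synthesis and the cell integrity kinase cascade, fell from 709, 695 and 684 TPM to 481, 463 and 492 TPM (-0.54 ± 0.04, adjusted p = 0.000533). GSC2, a glucan synthase subunit, fell by 0.30 and GAS1, a glucan remodelling enzyme, by 0.25. Of 29 genes of the cell integrity pathway and wall synthesis, 6 (20.7%) were higher and 4 (13.8%) lower, and 1 (3.45%) and 9 (31.0%) after scaling. Among the higher genes, SCW10, a cell wall protein gene (0.18), kept its call after scaling (adjusted p = 0.099), whereas GAS5, a relative of GAS1 (0.19), and WSC3, a cell wall stress sensor gene (0.18), did not (0.22 and 0.235).

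Transporters of ions and drugs also split. ENA1, the sodium pump, fell by 0.39, though 86.9% of its read-length windows also occur elsewhere. PHO89, a phosphate and sodium cotransporter, fell from 95.6, 99.3 and 96.9 TPM to 73.6, 69.7 and 67.2 TPM (log2 fold change -0.47 ± 0.05). PDR12, the weak acid pump, rose from 17.7, 15.6 and 15.6 TPM to 25.6, 23.7 and 23.9 TPM (0.56 ± 0.07, adjusted p = 0.00642). Of 31 genes of the AP-1 family and of drug resistance, 9 (29.0%) were higher and 4 (12.9%) lower, beside 16.0% and 4.42% of all genes. After median-of-ratios scaling 3 (9.68%) were higher and 5 (16.1%) lower, beside 4.55% and 8.31%. YAP6, the closest relative of CIN5, was higher only in the deposited values (0.33, adjusted p = 0.0522), and YAP1 did not pass the test at 0.08.

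Mating genes were examined as a further group. STE2, the receptor for alpha-factor that defines MATa cells, averaged 202 TPM in the control and 237 TPM in pGAL-EUC1. AGA2, the MATa agglutinin subunit, rose from 97.9, 86.6 and 124 TPM to 164, 171 and 135 TPM (log2 fold change 0.61 ± 0.14, adjusted p = 0.0353), and its anchor AGA1 rose by 0.44. BAR1, the protease that degrades alpha-factor, rose by 0.25 and STE2 by 0.23. The a-factor genes MFA1 and MFA2 did not pass the test at -0.13 and -0.01. Of the 7 MATa genes, 5 were higher and none lower, and 3 after median-of-ratios scaling, and none of the 5 MATalpha genes passed the test. PRM1, a gene of cell fusion, rose from 5.64, 6.41 and 5.59 TPM to 9.96, 8.93 and 7.86 TPM (0.52 ± 0.12, adjusted p = 0.0409). Of 30 genes of the mating and filamentation pathways, 7 (23.3%) were higher and 3 lower, and 2 (6.67%) and 4 (13.3%) after scaling, beside 16.0% and 4.42% of all genes and 4.55% and 8.31% after scaling. The 3 lower ones were DIG1, a repressor of the pathways, at -0.29, PRM4 at -0.29 and TEC1, the activator of filamentation genes, at -0.19 (adjusted p = 0.0446).

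**Figure D4:**
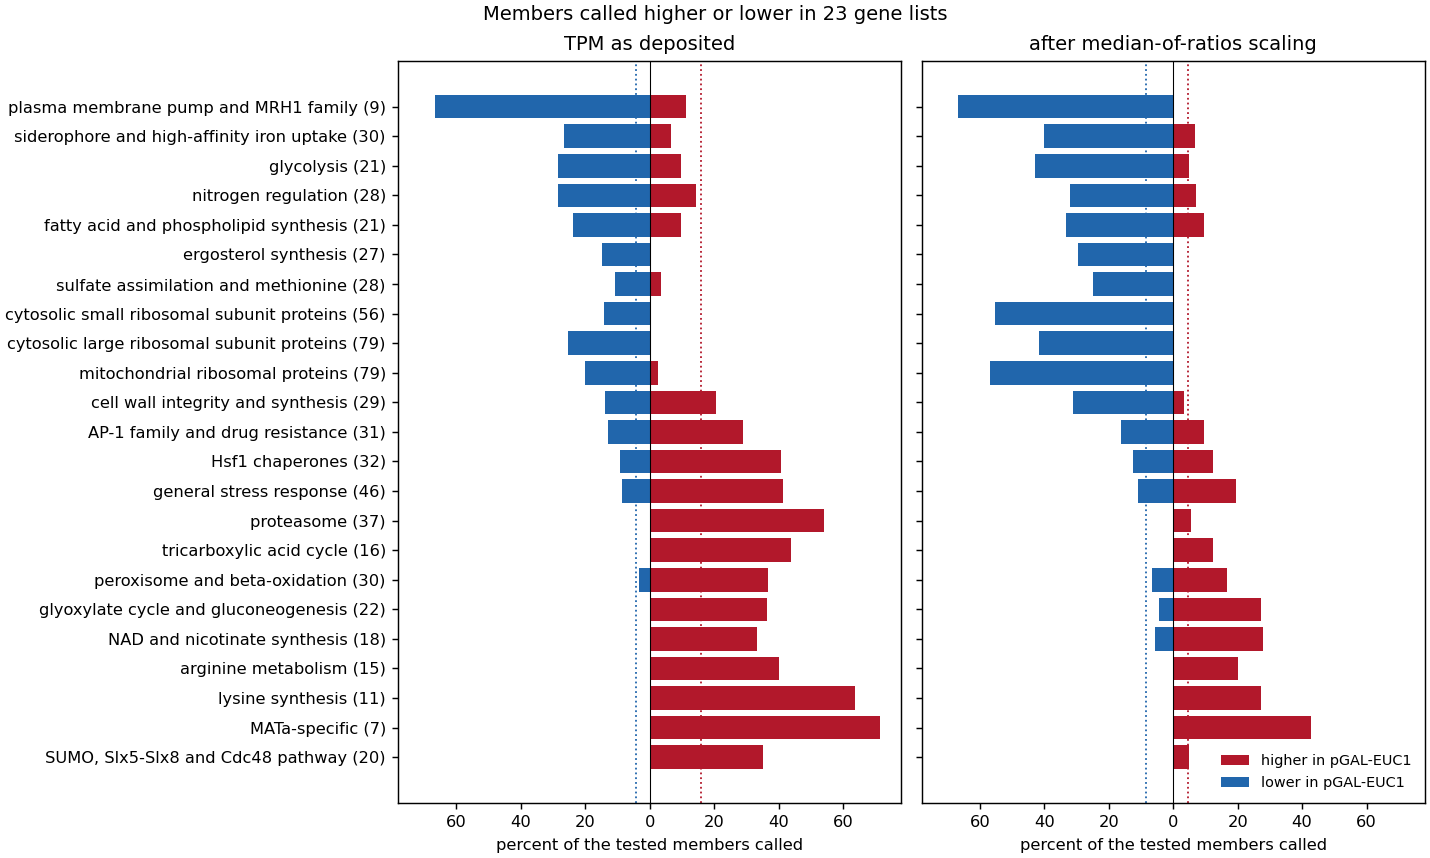
Percent of tested members (number in brackets) of 23 gene lists called higher (red, right) or lower (blue, left) in pGAL-EUC1, in the deposited TPM and after median-of-ratios scaling, with dotted lines at the percent of all genes called in each direction. The pump family and the iron, glycolysis and ribosomal protein lists stand to the left in both panels, while the right-hand bars of the proteasome and tricarboxylic acid cycle shrink after scaling.

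For the directions in which no member of a list passed the adjusted test, members at an unadjusted p under 0.05 (limma) were counted as well. In the deposited values these were 3 higher genes of ergosterol synthesis, 1 higher gene each of the mitochondrial genome list and the MATalpha list, and 1 lower gene of the respiratory chain. After median-of-ratios scaling they were 1 lower gene each of the proteasome and the SUMO pathway and 1 higher gene of the respiratory chain, and for the other directions given above as none the count was 0 as well.

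The paired pattern of the hotspot sites was then looked for, on both strands, in the 300 bases from 250 before to 50 after the start of each gene. It was found for 8 of 5742 genes with a position in R64, or 0.139%. Among the 274 genes with a position that were called higher under both scalings 2 held it, GRE3 and PRM1, and among the 254 called lower 1 did, IAH1, an esterase gene (log2 fold change -0.25). VPS45, a gene of vesicle fusion (0.22), and RVS161, an amphiphysin gene (0.12), were higher in the deposited values only. FUS1, a gene of cell fusion in mating (0.21), GIC2, an effector of Cdc42 (0.07), and SDD2 (-0.03), which flanks a hotspot site, did not pass the test. These are matches of letters in a short window and not sites, and binding of Euc1 there was not analysed here. Where an A follows, the letters TGTTTCA within the pattern are those of the pheromone response element to which Ste12 binds at mating genes, read on the other strand. In the windows of CIN5, GPM2 and PMA1 the pattern was not found. The hotspot site ub-HS4 motif 2 (chrXIII:308898-308933) does not hold the whole pattern either. That site overlaps the short fragment that the paper mapped as sufficient to form a hotspot at another locus. The search therefore cannot show where Euc1 does not bind. The paper reports binding of overexpressed Euc1 between STI1 and CIN5 and upstream of TEC1. STI1 (chrXV:381053-382822, plus strand) and CIN5 (chrXV:383533-384420, minus strand) point toward each other. The region between them thus lies past the ends of both genes. It is outside the CIN5 window searched (chrXV:384371-384670).

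The windows of GRE3 and PRM1 are shown with the fixed letters in capitals, since they can be set beside the hotspot sites above. In PRM1 the pattern occurs in a run, and its matches share letters.
GRE3 (chrVIII:323159-323458, plus strand): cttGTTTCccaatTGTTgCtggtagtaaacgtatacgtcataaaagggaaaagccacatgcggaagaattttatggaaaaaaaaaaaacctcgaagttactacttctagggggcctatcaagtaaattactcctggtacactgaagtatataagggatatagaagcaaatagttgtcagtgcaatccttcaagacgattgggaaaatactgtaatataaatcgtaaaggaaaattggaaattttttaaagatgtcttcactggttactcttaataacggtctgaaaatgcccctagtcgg
PRM1 (chrXIV:110667-110966, plus strand): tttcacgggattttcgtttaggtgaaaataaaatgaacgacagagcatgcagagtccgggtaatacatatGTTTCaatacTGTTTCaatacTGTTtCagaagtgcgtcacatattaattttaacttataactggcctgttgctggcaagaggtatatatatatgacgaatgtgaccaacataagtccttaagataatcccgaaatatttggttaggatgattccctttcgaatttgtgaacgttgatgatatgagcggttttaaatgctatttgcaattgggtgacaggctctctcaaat
Within 1000 bases before the start, 34 of 5741 genes (0.592%) held the pattern, 3 of the 274 higher and 1 of the 254 lower.

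Of the 14 genes that flank hotspot sites, 4 (28.6%) were higher and 1 (7.14%) lower in the deposited values, beside 16.0% and 4.42% of all genes. After median-of-ratios scaling 1 (7.14%) was higher and 2 (14.3%) lower, beside 4.55% and 8.31%. Counts this small do not set the group apart from all genes. The gene that was higher under both was MCH1, a monocarboxylate transporter homologue at 39.3, 35.6 and 37.3 TPM in the control and at 46.3, 45.2 and 44.2 TPM in pGAL-EUC1 (log2 fold change 0.27 ± 0.05). PEX9, a peroxisomal import receptor gene, was at 2.58, 2.63 and 3.64 TPM in the control and at 5.31, 4.78 and 5.18 TPM in pGAL-EUC1 (0.63 ± 0.18, adjusted p = 0.0646, and 0.101 after scaling). In the other direction, ISF1 was lower under both scalings. It was at 49.3, 50.6 and 51.5 TPM in the control and at 43.7, 42.8 and 40.8 TPM in pGAL-EUC1 (-0.25 ± 0.05, adjusted p = 0.0239, and 0.0112 after scaling).

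The last comparison set each change beside that of the same gene in the deletion experiment. The strain background, the medium and the direction of the EUC1 change all differed between the experiments and cannot be told apart. In the deletion experiment 2 of 6217 genes passed the same threshold, EUC1 itself (log2 fold change -3.72) and PAU9, a seripauperin gene (2.38, adjusted p = 0.0957), which was picked after its values were seen and had 0.80 with overexpression (adjusted p = 0.43). Of 6325 genes tested for a difference between the 2 changes (an interaction term over the 12 samples), 143 (2.26%) passed, 93 with the more positive change in the overexpression. CIN5 had a log2 fold change of 1.20 with overexpression and -0.37 ± 0.15 with deletion (adjusted p of the difference 0.00143). HSP12 had 0.52 with overexpression and -1.10 with deletion (0.0307), and PMA1 had -0.88 and 0.34 (0.00143). HXT4 and RHO1 had -0.77 and 0.20, and -0.54 and 0.05, also with a difference that passed the test (0.00548 and 0.00143). GPM2 had 1.09 and -0.08 (0.0124), and GRE3 had 0.75 and -0.00 (0.0156). For FIT2 the changes were -0.90 ± 0.09 and -0.66 ± 0.54, and their difference did not pass (0.933). Its level was 440, 458 and 98.7 TPM in WT and 243, 151 and 136 TPM in the deletion. The deletion value is thus poorly determined, and no likeness of the 2 changes can be read from it. The number of genes that passed ranged from 35 to 443 when a sample was left out, so the genes named carry their own values rather than that count.

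**Figure D5:**
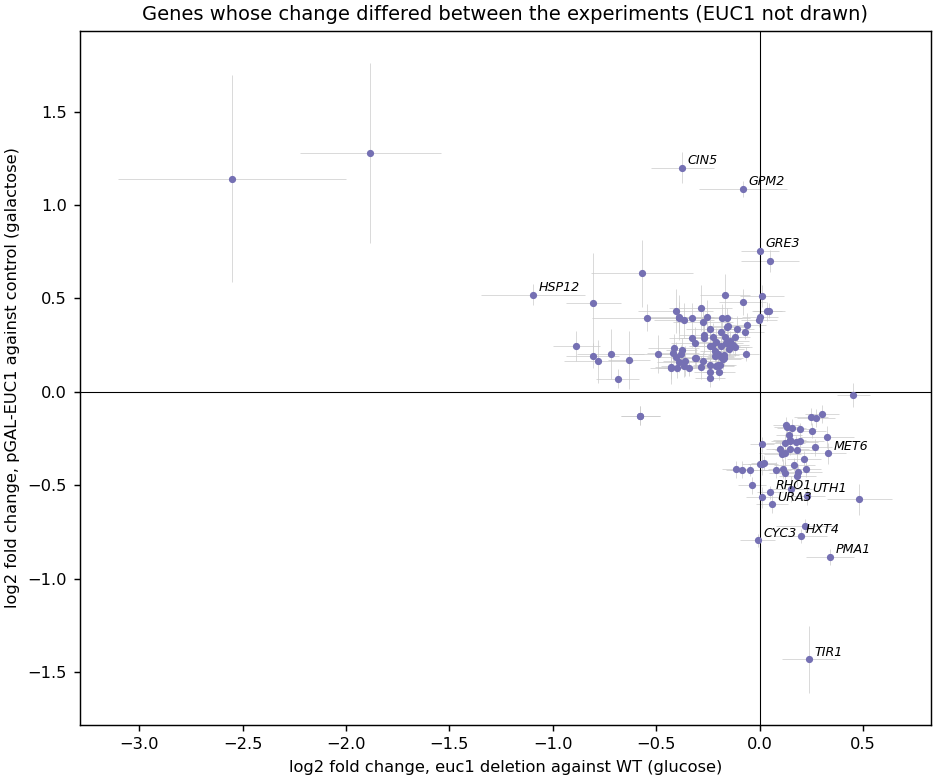
Log2 fold change with overexpression in galactose (vertical axis) against that with deletion in glucose (horizontal axis), each with its standard error, for 141 genes whose changes differed between the experiments, EUC1 left out. Most points lie in the upper left or lower right part, which the choice of genes with a difference favours, with CIN5 and HSP12 at the upper left and PMA1 and TIR1 at the lower right.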

How the data were processed

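PolyA RNA of 3 control and 3 pGAL-EUC1 samples was sequenced as single-end reads of 75 bases. The authors aligned them with STAR 2.6.0a to ENSEMBL R64-1-1 and deposited TPM values from RSEM 1.3.0, summing to between 986510 and 990614 per sample. Counts were not used here and depth is unknown. Column names sit 1 cell to the left of their values, and columns were matched to samples by the codes in the labels. Of 6825 identifiers, 5903 matched a locus tag of R64, which gave names and positions. Genes were fitted with limma 3.58.1 (R 4.3.3, eBayes with trend) on log2(TPM + 1), and two-sided p-values were adjusted by Benjamini-Hochberg, with 0.1 as the threshold. A fold change on this scale understates the change of genes with low values. The procedure was tested on simulated data. The gene lists, tests and named genes were chosen with earlier results of these data known. Named were the 15 largest rises and falls (adjusted p under 0.1, groups apart, mean of at least 5 TPM), up to 3 called members per list and direction, and a fixed set of genes, and further list members are given where they complete a group. Alternatives were pseudocounts of 0.1 and 5, no filter or 10 TPM, 2 scalings, nuclear genes only, all 12 samples, no trend, a replicate block, length and GC correction, an adjusted p under 0.05 and fits without each sample. Figures were drawn with Python 3.11.15 and matplotlib 3.10.9.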

Additional observations from a re-analysis of the deposited data

How the results depend on the processing

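The log2 fold change of EUC1 kept its direction and its call under all alternatives run, including all fits without a sample. The count of changed genes moved. It was 1294 (1014 higher, 280 lower) as reported, 814 (288 and 526) after median-of-ratios scaling, 163 (102 and 61) with all 12 samples in 1 fit, and 609 (440 and 169) at an adjusted p under 0.05. Scaling without cytosolic ribosomal protein genes left 663 higher. Without each sample in turn it ranged from 263 to 1081 (164 to 804 higher, 99 to 277 lower). The genes with a different change in both experiments, 143 as reported, were 87 without the trend, 17 with the replicate block, 42 at an adjusted p under 0.05 and 35 to 443 without a sample. The medians of hexose transport and glucose sensing, of respiratory chain and ATP synthase, and of nitrogen regulation turned to -0.0072, -0.053 and -0.011 after median-of-ratios scaling. The cause of these shifts was not tested. Same-numbered samples deviated with correlations of -0.006, 0.189 and -0.107. With 3 samples per group these cannot settle whether the numbers pair the samples. The replicate block gave 1221 genes (925 higher, 296 lower). Of 182 named and called genes, 52 lost the call after median-of-ratios scaling, 122 with 12 samples and 101 without pGAL-EUC1 replicate 1. TPM values hide the read depth, so the error of low genes rests on 3 samples per group.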
